A study of Mus musculus with 2 samples.

Results

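The 10 genes described here, Thy1, Cd44, Icam1, Pecam1, Cd24a, Cd9, Kit, Pdgfra, Pdgfrb and Alpl, encode surface proteins used to stage the reprogramming of fibroblasts to induced pluripotent stem cells (iPSCs). They were chosen by name, and all 10 were among the 17408 genes of the deposited table. The cells were unsorted mouse iPSC reprogramming intermediates at day 16, made from embryonic fibroblasts (MEFs) carrying STEMCCA, a doxycycline-inducible cassette of Pou5f1, Sox2, Klf4 and Myc. They were grown in embryonic stem cell medium with LIF, doxycycline and ascorbic acid, so every cell in both libraries came from the same treatment, and no untreated MEFs or finished iPSC lines were profiled with them. RNA was measured by droplet single-cell sequencing of transcript 3' ends, with each captured molecule tagged by a unique molecular identifier (UMI). The 2 libraries formed 1 group. The study describes 2 independent STEMCCA mouse systems, and since the labels do not tie a library to either, differences between libraries cannot be told apart from differences between systems or preparations.

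Library 1 held 3109 cells and 54145377 UMIs, and library 2 held 3914 cells and 64654306 UMIs. Median depth was 15625 and 14292 UMIs per cell, 12 cell barcodes occurred in both libraries, and cells ranged from 4753 to 60990 UMIs. Clustering, from which the 10 genes were left out, gave 15 cell states, of which 11 had at least 30 cells in both libraries. The pluripotent-like state, led by Dppa5a, had 11 of 12 listed pluripotency markers raised at least 2-fold over the rest and held 146 cells of library 1 (4.7%) and 391 cells of library 2 (9.99%). The fibroblast-like states, led by Spp1 and by the cycling gene Diaph3, had 9 and 8 of 11 fibroblast markers raised, and the Mylk state was smooth-muscle-like with 7 of 7 markers of that class, and it also had 9 of 11 fibroblast markers raised. The 7 other states of the 11 are called by their leading gene, since no marker list named them. Of the 4 small states, those led by Epcam and Lyz2 were epithelial-like (9 of 11 markers) and macrophage-like (8 of 8). Pluripotent-like cells were deep, with medians of 28768 and 26097 UMIs against 15214 and 13651 in the other cells, so shares of cells with a UMI are given after each cell was thinned to 4000 UMIs.

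Reprogramming fibroblasts are usually staged by what they lose and gain at the surface. Thy1, a GPI-anchored glycoprotein of mesenchymal cells, and Cd44, the hyaluronan receptor, are lost, as are the receptor tyrosine kinases Pdgfra and Pdgfrb, through which platelet-derived growth factors act on mesenchymal cells. Icam1, an adhesion molecule of the immunoglobulin family, Pecam1, a homophilic adhesion molecule also known from endothelium, and Alpl, the tissue-nonspecific alkaline phosphatase behind the classical stain for pluripotent colonies, are gained on the way to pluripotency. Kit is the receptor for stem cell factor, Cd24a a heavily glycosylated GPI-anchored protein of epithelial and progenitor cells, and Cd9 a tetraspanin found on many cell types.

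Upstream promoter sequence from RefSeq (GRCm38.p6) was matched for 6 of the 10 genes, namely Cd44, Icam1, Cd9, Kit, Pdgfra and Alpl. The 4 stretches shown are the 250 bases before the annotated start of Cd44 and Pdgfra, whose RNA was low in pluripotent-like cells, and of Icam1 and Alpl, whose RNA was high there. They are given so that their base composition and short motifs can be read beside the levels. They run 5′ to 3′ on the strand of the gene, and capitals mark matches to a GC box (GGGCGG) or an E-box bound by Snail and Zeb factors (CAGGTG), either of which can stand as its reverse complement.
Cd44 (chr2:102901666-102901915, minus strand): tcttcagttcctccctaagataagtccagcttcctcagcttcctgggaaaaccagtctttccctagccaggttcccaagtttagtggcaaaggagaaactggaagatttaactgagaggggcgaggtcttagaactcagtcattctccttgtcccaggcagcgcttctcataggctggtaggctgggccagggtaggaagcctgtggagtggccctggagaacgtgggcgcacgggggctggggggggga
Pdgfra (chr5:75152001-75152250, plus strand): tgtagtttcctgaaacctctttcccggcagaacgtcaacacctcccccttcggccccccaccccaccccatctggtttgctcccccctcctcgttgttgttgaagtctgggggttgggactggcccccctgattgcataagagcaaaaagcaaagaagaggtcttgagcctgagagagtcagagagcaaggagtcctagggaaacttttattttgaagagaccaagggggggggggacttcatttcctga
Icam1 (chr9:21015690-21015939, plus strand): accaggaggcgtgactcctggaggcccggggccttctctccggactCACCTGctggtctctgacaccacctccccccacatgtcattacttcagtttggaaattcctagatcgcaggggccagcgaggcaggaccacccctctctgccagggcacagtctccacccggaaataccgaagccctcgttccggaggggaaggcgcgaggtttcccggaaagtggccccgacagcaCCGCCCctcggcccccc
Alpl (chr4:137796385-137796634, minus strand): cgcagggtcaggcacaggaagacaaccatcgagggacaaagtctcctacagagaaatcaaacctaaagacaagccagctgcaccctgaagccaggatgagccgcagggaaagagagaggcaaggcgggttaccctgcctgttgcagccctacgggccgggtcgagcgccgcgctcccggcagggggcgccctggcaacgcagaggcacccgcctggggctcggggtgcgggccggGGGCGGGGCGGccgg

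GC content was 56.4% for Cd44 and 54.4% for Pdgfra, against 65.2% for Icam1 and 68.4% for this start of Alpl. The stretches not shown went both ways. Both overlapping stretches of Kit, whose level was higher in pluripotent-like cells, had 70.8% and 1 GC box each. Against the contrast, a second start of Alpl had 56% and Cd9, which was lower in pluripotent-like cells, had 61.6% and 2 GC boxes. The median over all promoters was 52.4%. The Icam1 stretch held 1 GC box and 1 E-box, the Alpl stretch held 2 GC boxes that share bases, and neither was found in the Cd44 or Pdgfra stretch. Such letters are common, since 32.7% of 32851 promoters held a GC box and 17.2% the E-box, so these matches are only descriptions of the windows. Both strands were also searched for 8 other motifs. These included AP-1 as TGANTCA, TEAD as ACATTCC, SOX as ACAATNG and the TATA box as TATAAA. Octamer, NF-kB, ETS and KLF sites were among them too, each as a fixed pattern. None of these patterns matched in the 4 stretches. The letters CACCC alone do occur in the Pdgfra, Icam1 and Alpl stretches, so the KLF pattern was a stricter one. Looser forms of these sites were not searched for and may be present.

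Thy1 had the most UMIs of the 10 members in both libraries, and fell from the fibroblast-like to the pluripotent-like states. Its level, as the mean over cells of UMIs per 10000, was 0.18 in pluripotent-like cells of library 1 and 0.187 in those of library 2, against 3.4 and 2.83 in all other cells. The fibroblast-like cells had 6.13 and 5.44, and the smooth-muscle-like cells 5.92 and 5.2. Both pluripotent-like values lay below those of the other 10 states in the fit. The difference was a log2 fold of -3.75 (SE 0.10) on the log2(level + 0.05) scale, with an adjusted p of 3.3e-09 in limma. Thy1 lies on chromosome 9 (44043384 to 44048579, plus strand, GRCm38).

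Cd44 was highest in the cycling fibroblast-like state and, like Thy1, lowest in the pluripotent-like state, with the states between in another order than for Thy1. It was at 0.0373 and 0.0472 UMIs per 10000 in pluripotent-like cells, from 18 and 58 UMIs, and at 0.916 and 1 in the other cells. Its log2 fold was -3.45 (SE 0.11, limma adjusted p = 4.9e-09), with -3.47 in library 1 and -3.44 in library 2. The highest state had 1.68 and 2.57. Counts at transcript 3' ends do not separate the splice forms for which Cd44 is known. Cd44 lies on chromosome 2 (102811141 to 102901665, minus strand).

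The PDGF receptors had their highest levels in the fibroblast-like, smooth-muscle-like and Mmp11 states. Pdgfrb was at 0.0214 and 0.047 in pluripotent-like cells against 0.969 and 0.679 in the others, a log2 fold of -3.37 (SE 0.18, limma adjusted p = 1.6e-07). Its levels were between 1.45 and 2.2 in the 2 fibroblast-like states, the smooth-muscle-like state and the Mmp11 state, 1.06 and 0.897 in the Nxpe2 state, 1.12 and 0.833 in the Rarres2 state, and no higher than 0.181 in the Perp, Dmrtc2 and 2810417H13Rik states. Pdgfra was rarer. It reached 0.485 and 0.327 in the Spp1 fibroblast-like state, and was no higher than 0.0114 in the Knstrn, Rarres2, Perp, Dmrtc2 and 2810417H13Rik states. Outside the fit, the small state led by Saa3 had 0.353 in its 41 cells of library 2, from 17 UMIs. In pluripotent-like cells there were 0 UMIs of Pdgfra among 4228904 in library 1 and 4 among 10356740 in library 2. A count of 0 allows up to 3, so on summed UMIs Pdgfra was at least 8.61-fold higher in the other cells of library 1. With a mean under 0.05 over the 4 profiles it was not tested in this comparison. Pdgfra and Kit are both on chromosome 5, at 75152292 to 75198215 and 75574916 to 75656722 on the plus strand, with 376700 bases between them, and their levels went opposite ways. Pdgfrb lies on chromosome 18 (61045150 to 61085061, plus strand).

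Alpl was higher in pluripotent-like cells. It was at 0.504 and 0.584 there and at 0.0705 and 0.0323 in the other cells, a log2 fold of 2.57 (SE 0.16, limma adjusted p = 4.1e-07). This fold was the largest rise of the members tested at this pseudocount, but with a pseudocount of 0.01 Alpl was at 3.24 and Pecam1 at 3.40. The gene (chromosome 4, 137741733 to 137796384, minus strand) was not particular to that class. In library 1 the 64 epithelial-like cells, led by Epcam, Krt8 and Cldn7, had 1 UMI per 10000, above the pluripotent-like level, and library 2 had only 4 such cells. Next in order were the Dmrtc2 state at 0.154 and 0.0864 and the S-phase state led by 2810417H13Rik at 0.142 and 0.046, whose ranges overlapped.

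Pecam1 had its highest level in pluripotent-like cells, well above every other state in the fit. Its level was 0.139 and 0.218 in pluripotent-like cells (59 and 223 UMIs) and 0.00605 and 0.00897 in all other cells together (29 and 48 UMIs). None of the other 10 states passed 0.0196 in either library. The log2 fold was 1.97 (SE 0.15, limma adjusted p = 1.4e-06), a value that the pseudocount holds down at such low levels. Of 7 endothelial markers in the table, Cdh5 was at 0 in pluripotent-like cells. The list's summed level was 0.519 and 0.58 there and 0.19 and 0.178 in the other cells, carried mainly by Egfl7 at 0.456 and 0.533. The part of such cells in the Pecam1 level was not tested. Pecam1 lies on chromosome 11 (106654217 to 106750628, minus strand).

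Icam1 (chromosome 9, 21015985 to 21028817, plus strand) was highest in pluripotent-like cells but not silent elsewhere. It stood at 0.173 and 0.271 there against 0.0589 and 0.0781 in the other cells, and the log2 fold was 1.18 (SE 0.13, limma adjusted p = 1.5e-05). The Spp1 fibroblast-like state had 0.149 and 0.0837 and the Perp state 0.104 and 0.126, so the gap to the nearest state in the fit was small in library 1. Outside the fit, the 41 cells of the small Saa3 state in library 2 had 0.232, from 13 UMIs. Its 1 cell of library 1 held 1 UMI. Macrophages also carry Icam1. Of 8 macrophage markers, Ptprc, Csf1r and Adgre1 were at 0 in pluripotent-like cells, and the summed level was 0.128 and 0.176 there, mostly Cd68 at 0.119 and 0.16, against 0.231 and 0.395 in the other cells. The part of such cells in the Icam1 level was not tested.

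Kit was the rarest of the gained members, with 20 and 51 UMIs in pluripotent-like cells, or 0.0503 and 0.0547 per 10000. The other cells were at 0.00916 and 0.00781. No Kit UMI was found in fibroblast-like cells of either library, in totals of 5735470 and 3435529 UMIs, so on summed UMIs Kit was at least 9.04-fold and 5.64-fold higher in pluripotent-like cells. The S-phase 2810417H13Rik state came next of the 11 states, at 0.0396 and 0.031, and did not overlap with the pluripotent-like values. The epithelial-like cells stood higher, at 0.0697 and 0.215, but on only 8 and 2 UMIs. Kit fell under the minimum level and was not tested.

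Cd24a and Cd9 did not follow either course. Cd24a (chromosome 10, 43578284 to 43584265, plus strand) was at 0.113 and 0.0841 in pluripotent-like cells and at 0.473 and 0.365 in the others, a log2 fold of -1.66 (SE 0.11, limma adjusted p = 5.2e-07). Against fibroblast-like cells, which had 0.167 and 0.135, the log2 fold was only -0.44. Its high states were the Perp state at 1.19 and 0.989, in which the keratin gene Krt19 also led, the mitotic Knstrn state at 0.937 and 0.9, and the epithelial-like cells of library 1 at 1.88. The S-phase state differed between libraries, at 0.854 and 0.319. Annotated copies of Cd24a (Gm15352, 92.3% identical over 259 bases) and of Cd9 (Cd9-ps, 91.1% over 665 bases) were not rows of the table, so how their reads were assigned is not known.

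Cd9 (chromosome 6, 125460266 to 125494791, minus strand) had the smallest fold of the members tested. Pluripotent-like cells had 1.45 and 1.76 and the other cells 2.14 and 2.16, a log2 fold of -0.42 (SE 0.09, limma adjusted p = 0.0025). The median log2 fold of all 9224 genes tested was -0.07, relative to which Cd9 was at -0.35. Cd9 was lowest in the S-phase state at 1.06 and 0.995 and had its highest mean in the Perp state at 2.8 and 3.37, although in library 1 the Mmp11 state was higher at 2.88.

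In counts, 3 of the 8 members tested were higher in pluripotent-like cells (Icam1, Pecam1 and Alpl) and 5 were lower (Thy1, Cd44, Cd24a, Cd9 and Pdgfrb). Among all genes tested, 34.3% were called higher and 40.5% lower, so passing the test was common in this comparison and the size of the fold tells more than the call. The Thy1, Cd44 and Pdgfrb folds lay below those of all but 0.249%, 0.564% and 0.716% of genes, while 98.6% and 97.2% of genes had folds below those of Alpl and Pecam1. The states were cut from the same cells, although without these genes, so the p-values concern a difference between given states. They set it against a variance that limma shares over genes, not against each gene's own spread over 2 libraries. Pdgfrb, with log2 folds of -3.84 in library 1 and -2.91 in library 2, had an SE of 0.18.

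**Figure D1:**
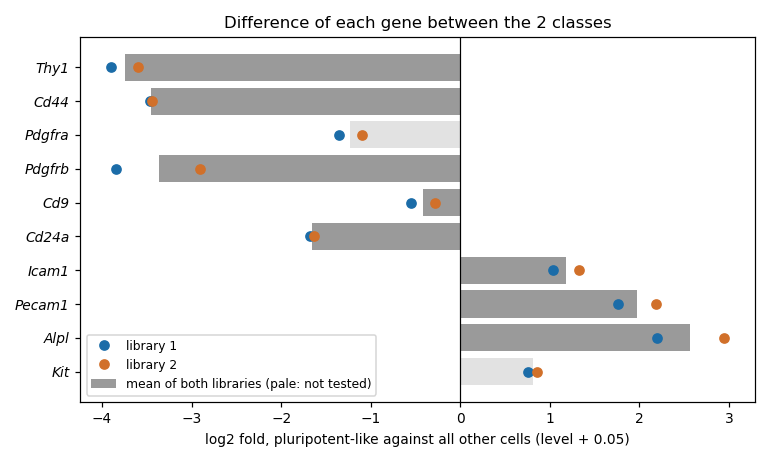
Log2 fold of each gene between pluripotent-like and all other cells (horizontal axis, level in UMIs per 10000 plus 0.05), with bars for the mean and points for the libraries. In both libraries Thy1, Cd44, Pdgfrb, Pdgfra, Cd24a and Cd9 lay below 0 and Icam1, Pecam1, Alpl and Kit above it, and the pale bars of Pdgfra and Kit had no test.

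Across the 11 states, 8 of 8 members tested differed by limma's moderated F test, and so did 92.9% of all genes tested. The F values were 286 for Thy1, 227 for Pdgfrb, 133 for Cd44, 64.1 for Pdgfra, 43.8 for Cd24a, 42.1 for Alpl, 18.2 for Cd9 and 12.1 for Icam1. Of all genes tested, 99.4% had an F below that of Thy1, and 48.9% one below that of Icam1. With the pluripotent-like state left out, 7 of 7 members tested still differed, against 85.1% of all genes tested, so these genes varied among the other states too.

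The order of the levels of Thy1 fell into steps. The 2 fibroblast-like states and the smooth-muscle-like state were highest, between 5.16 and 6.18, and overlapped with each other. The Nxpe2 state followed at 3.89 and 3.99, above the Rarres2 state (3.86 and 3) and the Knstrn state (2.83 and 3), which met. The Mmp11 state (2.66 and 2.5) and the Perp state (2.17 and 2.23) came next without overlap. The S-phase state (0.953 and 1.28) and the Dmrtc2 state (1.09 and 0.978) overlapped, and the pluripotent-like state lay below both. Cd44 showed fewer steps, with 6 of 10 pairs of neighbouring states overlapping, against 4 of 10 for Thy1. For Pecam1 and Alpl, 9 of 10 neighbouring pairs overlapped, and the pluripotent-like state alone stood apart.

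**Figure D2:**
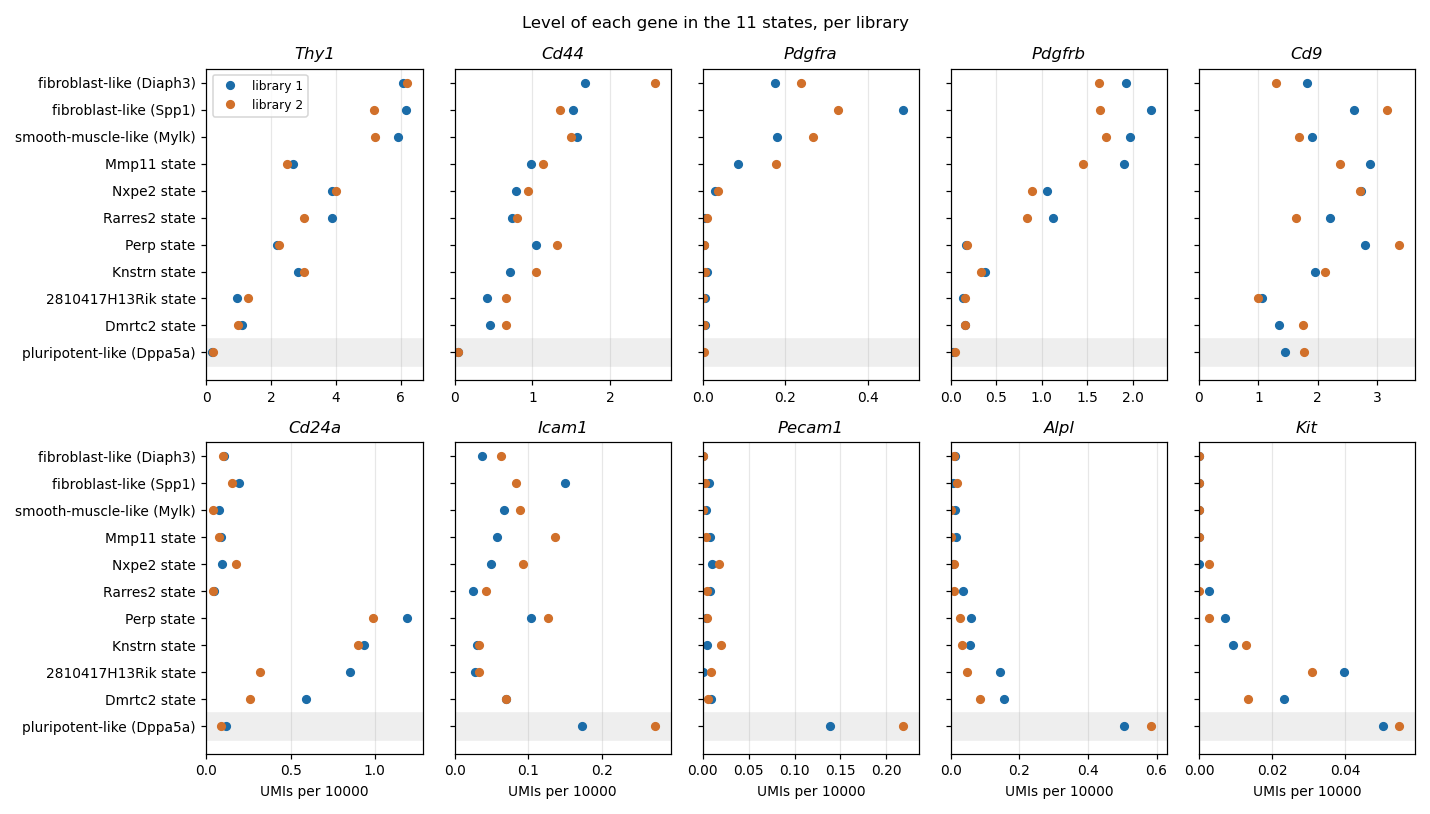
Level of each gene (horizontal axes, UMIs per 10000, each with its own scale) in the 11 states, with 1 point for each library and the pluripotent-like state shaded. Thy1, Cd44 and both PDGF receptors are high in the fibroblast-like and smooth-muscle-like states and near 0 in the pluripotent-like state, Icam1, Pecam1, Alpl and Kit peak in that state, and Cd24a and Cd9 have their highest means in the Perp state.

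Some RNA of the lost genes was still counted in pluripotent-like cells. As a share of the level in the other cells it was 5.31% and 6.62% for Thy1, 4.07% and 4.71% for Cd44 and 2.21% and 6.92% for Pdgfrb. The 11 fibroblast markers had median shares of 7.3% and 8.02%, from 0% to 29.7% in library 1 and from 4.2% to 32.7% in library 2. The members' remainder was therefore within the range of secreted matrix and other fibroblast genes in the same cells. The part of free RNA in the droplets in this remainder was not tested.

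In single cells at 4000 UMIs, Thy1 was found in 6.16% (95% exact binomial interval 2.86 to 11.4) and 6.91% (4.6 to 9.89) of the pluripotent-like class, against 60.5% and 56.1% of the others. Cd44 was found in 2.05% and 1.79% against 26% and 29.1%. Without thinning the Thy1 shares were 34.9% and 32.7% against 85.2% and 82.3%. These intervals cover counting error only. At this depth the gained genes were seen in a minority of the class where they were highest. Alpl was found in 18.5% and 20.7% of pluripotent-like cells against 2.7% and 1.25% of the others, Icam1 in 7.53% and 7.67% against 1.75% and 2.5%, and Pecam1 in 5.48% and 7.42% against 0.101% and 0.454%. Without thinning the shares in pluripotent-like cells were 68.5% and 67% for Alpl, 35.6% and 43.7% for Icam1, and 28.8% and 40.4% for Pecam1. In fibroblast-like cells, which should lack it, thinned Pecam1 was found in 0 of 342 and 0 of 223 cells. Cd9 did not separate the classes, at 47.3% and 51.7% against 50.8% and 49.6%, with opposite directions in the 2 libraries.

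Cd24a was the member most concentrated in some of the other cells. Unthinned, 28% and 22.5% of the other cells had a UMI, where an even spread of the same UMIs over cells of these depths would have put one in 60.5% and 52.2%. For Thy1 the same values were 85.2% and 82.3% against 97.8% and 96%. In pluripotent-like cells observed and even shares lay close, at 28.8% and 40.4% against 32.7% and 42.2% for Pecam1, and at 68.5% and 67% against 73.4% and 74.6% for Alpl.

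Sorting schemes for reprogramming cells combine surface proteins of this kind. Here gates were set instead on the presence or absence of a UMI in the thinned cells. Surface protein was not measured, so how these RNA gates compare with sorting was not tested. Cells without a UMI of Thy1 or Cd44 made up 34.2% and 38.2% of the libraries and held 92.5% and 91.8% of the pluripotent-like cells. Among them 12.7% (10.7 to 14.8) and 24% (21.9 to 26.3) were pluripotent-like, against 4.7% and 9.99% of all cells. A UMI of Icam1 beside the absence of Thy1 and Cd44 gave 35.7% and 48.1%, and a UMI of Pecam1 gave 80% (44.4 to 97.5, 8 of 10 cells) and 77.1% (59.9 to 89.6, 27 of 35 cells). The Icam1 gate held only 6.85% and 6.65% of the pluripotent-like cells, and the Pecam1 gate 5.48% and 6.91%. With a UMI of Kit, 14.3% and 57.1% were pluripotent-like, on 7 cells in each library. A UMI of Cd24a gave 3.3% and 7.27%, lower than the gate without it. Cells with UMIs of both Thy1 and Cd44 were pluripotent-like in 0.188% and 0.324% of cases. In a gate on 4000 UMIs absence means only that no molecule was sampled.

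The Alpl gate differed between the libraries. It was 35.8% (24.5 to 48.5) pluripotent-like in library 1 and 75.8% (66.1 to 83.8) in library 2. Of the 67 cells in that gate in library 1, 24 were pluripotent-like, 13 epithelial-like and 8 of the Dmrtc2 state, and of the 99 in library 2, 75, 1 and 13 were. With the epithelial-like cells left out, which was chosen after seeing the data, the shares were 44.4% and 76.5%.

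**Figure D3:**
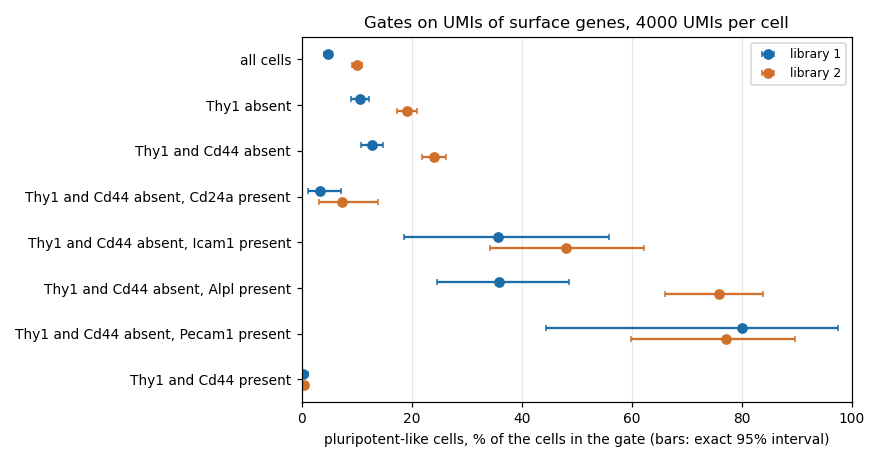
Share of pluripotent-like cells (horizontal axis, % of the cells in each gate) for gates on UMIs of surface genes after thinning to 4000 UMIs, with points for the libraries and exact 95% intervals as bars. The share rises from 4.7% and 9.99% of all cells to 12.7% and 24% without Thy1 and Cd44 and to 80% and 77.1% with Pecam1 added, while Alpl separates the libraries.

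Most of the cells without Thy1 and Cd44 were not pluripotent-like. They came to 59% and 56.7% of the Dmrtc2 state, 60.9% and 51.3% of the S-phase state, 84.4% of the epithelial-like cells of library 1, and 33% and 26.7% of the Knstrn state. Of the fibroblast-like Diaph3 state, 6.12% and 8.06% had neither. In the Dmrtc2 state Thy1 was at 1.09 and 0.978 and Cd44 at 0.457 and 0.655, which as means do not tell evenly reduced levels from a mixture of cells.

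Which of these RNAs occur together in 1 cell was asked for all 45 pairs, of which 29 had at least 5 cells expected with both in each library if detection were independent. Co-detection is given as a log2 odds ratio, which is 0 when independent. It was at least 2-fold above in both libraries for 3 pairs, Thy1-Pdgfra (1.53 and 1.33), Thy1-Pdgfrb (1.54 and 1.48) and Pdgfra-Pdgfrb (2.00 and 1.85). Thy1 and Cd44, on which the gates above were built, were at 0.88 and 0.69, found together in 532 and 618 cells where 449 and 529 would be even. It was at least 2-fold below for 5 pairs, Thy1-Alpl (-1.61 and -2.34), Cd44-Alpl (-1.67 and -2.55), Pdgfrb-Alpl (-2.28 and -4.27), Cd24a-Pdgfra (-1.55 and -1.27) and Thy1-Pecam1. Thy1 and Pecam1 were found together in 0 cells of library 1, where 6.38 would be even, and in 9 cells of library 2, where 23.1 would be.

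These relations lay mostly between states. Within states (a Mantel-Haenszel odds ratio), 0 of the 29 pairs were 2-fold from even in both libraries. Thy1-Pecam1 could not be judged there, since it had no within-state value in library 1. Thy1-Alpl fell to -0.02 and -0.06, Thy1-Pdgfra to 0.10 and 0.33, and Pdgfra-Pdgfrb to 0.50 and 0.72. Pdgfrb-Alpl kept -0.98 and -2.54, on 7 and 1 cells with both. Cd24a-Alpl was the pair whose direction differed most plainly, at 1.44 in library 1, with 28 cells where 13 would be even, and -1.14 in library 2, with 5 where 11.2 would be. Of the 28 cells 10 were epithelial-like, and without that class the values were 1.02 and -1.42. Cells share a library and a depth, so these ratios are descriptions.

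**Figure D4:**
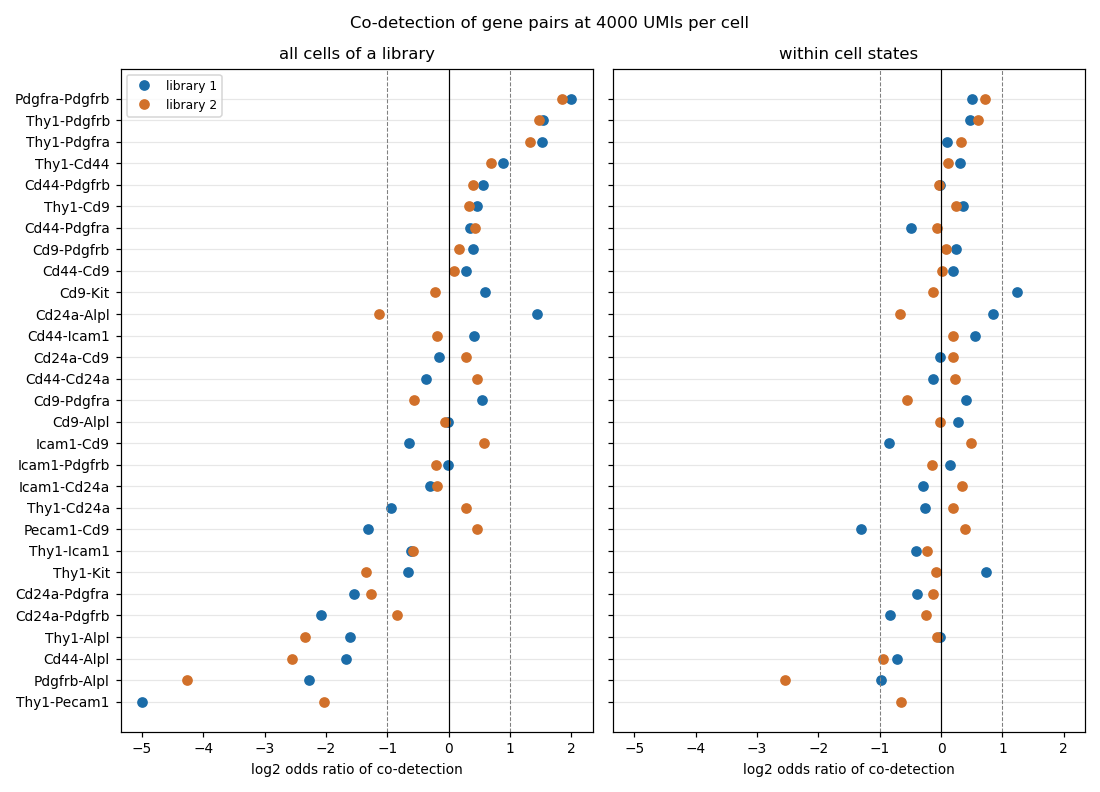
Log2 odds ratio of co-detection (horizontal axes) for the 29 pairs with enough cells, over all cells of a library on the left and within cell states on the right, with 1 point for each library and dashed lines at 2-fold. The pairs of Thy1 and the PDGF receptors lie above 1 on the left and the pairs of Alpl with Thy1, Cd44 and Pdgfrb below -1, and within states most points lie between the dashed lines. Thy1-Pecam1 has no point for library 1 on the right because no cell held both.

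The genes whose levels were most like each member's were sought among 7258 genes over the 22 profiles of state and library. These are correlations over profiles that share libraries and clustering, and they carry no test. For Thy1 they were Rhoj, Lats2 and Lgals1 (r = 0.98 each), for Cd44 Itpripl2, Ptrf and Tulp4 (0.98 each), for Pdgfra Srpx2, Ltbp2 and Sned1 (0.97 each) and for Pdgfrb Serpinf1, Lrp1 and Bgn (0.99, 0.99 and 0.98). For Pecam1 they were Fam25c, Sept1 and Apoc1 (0.98, 0.97 and 0.97), for Alpl Tdgf1, Rbm25 and E130012A19Rik (0.98, 0.96 and 0.96) and for Kit Bex2, Rpp25 and Gcat (0.96, 0.95 and 0.94). Icam1, Cd24a and Cd9 had looser companions, Tgif1, Abcc5 and Aamp (0.88, 0.86 and 0.85), Rnf187, Ndufa12 and Lgals7 (0.88, 0.88 and 0.86), and Nupr1, Sat1 and Gdi2 (0.89, 0.84 and 0.82).

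Other surface genes of mesenchymal cells mostly went the way of Thy1. Of 13 listed, 12 were tested, 10 were lower (40.5% of all genes tested) and 1 was higher (34.3% of all), with a median log2 fold of -1.53 beside -0.07 for all genes tested. The largest falls were those of Ly6a, the stem cell antigen Sca-1, at 0.223 and 0.276 against 4.93 and 4.28 (log2 fold -3.96, limma adjusted p = 3.7e-09), and of Cd34, a sialomucin (log2 fold -3.89). The gene that rose was Mcam, an adhesion molecule, at 0.0795 and 0.116 against 0.0267 and 0.0194 (log2 fold 1.00). Eng, an accessory receptor for TGF-beta, had a log2 fold of -0.23 and an adjusted p of 0.11 in limma.

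Of 8 genes for surface proteins or surface antigens of pluripotent cells, 6 were tested, of which 2 were higher (34.3% of all genes tested) and 4 lower (40.5% of all), with a median of -0.36. The share that was higher was near that of all genes. Fut9, the fucosyltransferase that makes the SSEA1 epitope, was higher at 0.0949 and 0.0932 against 0.0312 and 0.0288 (log2 fold 0.85), and so was Itga6, a laminin-binding integrin chain (1.11). Il6st and Lifr, both chains of the LIF receptor, were lower in RNA (log2 folds -1.40 and -0.81).

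Among 15 ligands and partners of the members, 14 were in the table and 7 were tested, of which 1 was higher (34.3% of all genes tested) and 5 lower (40.5% of all), with a median of -1.04. Pdgfa, a ligand of Pdgfra, was higher in pluripotent-like cells, at 0.982 and 0.86 against 0.653 and 0.543 (log2 fold 0.59, limma adjusted p = 2.6e-04). The mean level of Pdgfra itself was the lowest of the 11 states there, but not apart from others. In library 2 the Dmrtc2 (0.0027), Perp (0.00373) and S-phase (0.00178) states lay below the pluripotent-like value of 0.0041. The Cd9 partner Ptgfrn fell (log2 fold -1.78), as did the tetraspanins Cd63 (-1.33), Cd81 (-1.09) and Cd151 (-0.47), beside -0.42 for Cd9. Igsf8, from the same list, did not differ, with a log2 fold of -0.05 and an adjusted p of 0.79 in limma. The Kit ligand Kitl was too low to test, at 0.00335 and 0.00289 against 0.0234 and 0.0122, and the Icam1 receptor chains Itgal and Itgb2 were at 0.00286 or less in all 4 profiles.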

How the data were processed

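The authors obtained counts with Cell Ranger (version 2.1.1, mm10) and kept cells with 1500 to 6000 genes and under 9% mitochondrial RNA in Seurat, per their methods. The deposited values were on a natural log scale, ln(1 + UMIs per 10000 of the cell), and 100% of them came back as whole UMIs within 0.01. The sources used here give neither the strand setting of the counting nor any doublet removal, so genes on the opposite strand that overlap Cd44, Icam1, Cd9 and Pdgfra cannot be told apart from them. No doublet caller was run.

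The 10 genes, the companion lists and the markers were chosen with earlier results of these data known. Cells were clustered (scanpy version 1.11.5, 2000 variable genes, 30 components, 15 neighbours, leidenalg version 0.10.2, resolution 1) with the members, companion lists, reprogramming factors and sex-linked genes left out (652 genes). A cluster was named where at least 3 and at least 50% of a class's markers were 2-fold above the other cells, unless its 10 leading genes held more markers of another class, as in the Saa3 state. Mean levels per state and library entered limma (version 3.58.1, R version 4.3.3) as log2(level + 0.05) with a mean-variance trend, if a gene averaged at least 0.05, with class or state and library as terms and Benjamini-Hochberg adjustment at 0.05 over all genes tested. The 4 and 22 profiles gave 9.53 and 22.6 degrees of freedom, shared over genes. The fits were tested on simulated data. Thinning to 4000 UMIs left out 0 cells. Odds ratios over all cells had 0.5 added to each cell count, and those within states had nothing added. With 2 libraries an exact sign-flip test cannot go below p = 0.5. Positions are from GENCODE M21. All 10 members were named. For companion lists the 2 largest called rises and the 2 largest called falls were named, with Eng, Cd81, Cd151, Igsf8, Kitl, Itgal and Itgb2 added after their values were seen, and for each member the 3 most correlated genes with a mean of at least 0.1. The alternatives tried covered the clustering, pseudocount, minimum level, depth, libraries and replicate block.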

Additional observations from a re-analysis of the deposited data

How the results depend on the processing

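The members' directions held under the alternatives run, of which limma without the trend, equal weight of the other states, folds relative to the median, leaving out the pluripotent-like state and leaving out the epithelial-like cells were chosen after seeing the data. For the members tested, the log2 fold kept its sign in each of 14 or 15 settings on both libraries, from -4.64 to -2.40 for Thy1, -0.64 to -0.34 for Cd9, -2.01 to -0.44 for Cd24a, 0.42 to 3.40 for Pecam1 and 0.92 to 3.27 for Alpl. Many of these settings could not move the fold, so their number is no measure of its stability. The other clusterings gave the same pluripotent-like values, and the minimum level, replicate block and trend leave a fold unchanged. With a single library the log2 fold also kept its sign, and Cd9 was at -0.28 without replicate 1 and -0.55 without replicate 2. The lowest sizes came mostly with a pseudocount of 0.5, which exceeds several of these levels. Folds also shrank when the class was instead all cells with at least 3 listed pluripotency markers at 4000 UMIs. These were 181 and 434 cells, of which 144 and 383 lay in the pluripotent-like state. At the main pseudocount this gave -2.62 for Thy1 in place of -3.75, -2.37 for Cd44, -2.58 for Pdgfrb and -1.01 for Cd24a. The other members tested had smaller folds too. The replicate block, by library, changed no call of a member, and without it 8 of 8 members passed in both comparisons. Over all genes, 6471 and 8303 were called without it in place of 6906 and 8654. With no minimum level Kit (0.81, limma adjusted p = 5.5e-04) and Pdgfra (-1.23, adjusted p = 1.3e-04) were tested and called too. With a minimum mean of 0.2, calls over all genes fell to 3735 and 4691, because fewer genes were tested (4652 and 4822), and 5 of 5 members remained in the comparison across states. The pluripotent-like percentage among cells without Thy1 and Cd44, a mean of 18.4%, was 36% with no thinning and 12.7% to 24% with each library alone. With Icam1 added it was 14.3% and 45.2% in libraries 1 and 2 at 2000 UMIs, and 60% and 79.1% unthinned. With Pecam1 added it was 50% and 82.6% at 2000 UMIs, and 87% and 97.9% unthinned. The 8 pairs 2-fold from even became 4 of 19 at 2000 UMIs, 20 of 42 without thinning and 0 of 29 within states, where Thy1-Pecam1 had no value in library 1. Within states at resolution 0.5, at resolution 2 and with 4000 variable genes there were 1, 0 and 0. With each library alone there were 10 and 11. Depth limits several members, since few of their UMIs lay in pluripotent-like cells. Libraries 1 and 2 had 0 and 4 there for Pdgfra, 10 and 43 for Pdgfrb, and 18 and 58 for Cd44. Kit had 20 and 51, Cd24a 47 and 96, and Pecam1 59 and 223. With 2 libraries the spread itself is poorly known.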
